A study of Mus musculus with 6 samples.

Results

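B cells mature into follicular, marginal zone and B-1 cells, and 10 genes that mark these subsets are described here in sorted bone marrow B cells with and without an intact gene for the kinase TAK1. The genes are Fcer2a, Cd38, Cd9, Cd1d1, Notch2, Dtx1, Cd5, S1pr3, Zbtb32 and Bhlhe41. Every probe set annotated with exactly 1 of these symbols was taken, whatever its signal, which gave 17 of the 45101 probe sets of the Affymetrix array. They belong to 9 of the 18193 genes that the array measures with such a probe set, or 9 of the 10 listed, because no probe set carried Cd38 as its single symbol in the annotation used here, and Cd38 was not analysed. Of the 9 genes, 7 have more than 1 probe set: S1pr3 has 3, while Fcer2a, Cd1d1, Notch2, Dtx1, Zbtb32 and Bhlhe41 have 2 each.

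The RNA came from bone marrow B cells of C57BL/6 mice of mixed sex, aged 8 to 12 weeks and untreated. T, erythroid, myeloid and NK cells had been depleted through CD3, Ter119, CD11b, DX5 and Gr1, and the remainder was sorted by surface immunoglobulin light chain. The 3 groups of 2 arrays each were mb-1/TAK1f/f Igκ+ cells, called TAK1-deficient here, and mb-1/TAK1+/+ Igλ+ and Igκ+ cells, called wild-type. All groups therefore carry the mb-1 label. Mb-1 is the gene of CD79a, which is expressed across the B lineage, but the labels leave unstated what the allele is, how far TAK1 was lost and whether the replicates came from separate animals. The p-values below therefore measure only the spread between these arrays, which may be technical, and the small number of arrays limits their precision.

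Newly made B cells leave the bone marrow as transitional cells and complete their maturation mainly in the spleen. Most become recirculating follicular B cells, which carry the low-affinity IgE receptor CD23 and can return to the bone marrow. A smaller share become marginal zone B cells, a fate that needs signals through the receptor Notch2 and leaves the cells with little CD23 and much CD1d, CD9 and CD21. B-1 cells are a self-renewing lineage of the body cavities, set up largely around birth, which often carries CD5 and depends on the transcription factor Bhlhe41. TAK1 is a kinase that connects antigen, Toll-like and TNF-family receptors to NF-κB and to MAP kinases.

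Values are MAS5 signals on a linear scale. The arrays of the TAK1-deficient cells differed from the others throughout, so each level is read here against its own array. Their median signal over all probe sets was 323 and 324, against 53.7 and 59.1 in wild-type Igλ+ and 44.9 and 53.9 in wild-type Igκ+ cells. The 95th percentile of the unspiked control probe sets, used below as the background of an array, was 75.7 and 77.7 on the TAK1-deficient arrays, 13.1 and 17.4 on the Igλ+ arrays and 10.3 and 13.4 on the wild-type Igκ+ arrays. The B cell identity of the samples was checked on 7 measured marker genes, and all 7 were above background on each of the 6 arrays. Their levels were not equal: in TAK1-deficient against wild-type Igκ+ cells 3 were called higher and 2 lower, with log2 differences from -1.36 for Cd79a to 1.23 for Ms4a1. Among all probe sets of similar wild-type Igκ+ level 9.4%, on average, were called higher and 76.5% lower. Probe set 1419988_at of the targeted gene, Map3k7, had 346 and 599 in TAK1-deficient cells, against 2196 and 1805 in wild-type Igκ+ cells. Of the 6 Map3k7 probe sets 4 were called lower, while 1426627_at and 1447801_x_at did not pass, with log2 differences of -0.99 and 0.30 (limma, Benjamini-Hochberg adjusted p = 0.193 and 0.364). The sources used here do not place the probes inside or outside the floxed part, so they are no check of the deletion. These are bulk samples, so fewer cells of a type and less RNA per cell cannot be told apart in any result below.

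In TAK1-deficient against wild-type Igκ+ cells the listed genes did not all go one way. Fcer2a, the follicular marker, fell at both of its probe sets, and 1 probe set each of Dtx1 and Cd1d1 fell. The B-1 genes Cd5, Zbtb32 and Bhlhe41 and the sphingosine receptor gene S1pr3 rose, at 1 or 2 probe sets each. Notch2 gave opposite calls at its 2 probe sets, and Cd9 did not pass the test. In all, 7 of the 17 probe sets were higher and 5 were lower at a Benjamini-Hochberg adjusted p below 0.05, from limma fitted on log2(signal + 16) over all 34945 probe sets with 1 gene. The backgrounds are large: 50.8% of all tested probe sets were called higher, 26.1% lower and 76.9% in either direction. The counts of 7 and 5 lie near these shares and are not read as a result about the listed genes. An unadjusted p below 0.05 was found for 12 of the 17, against 78.7% of all. The groups did not overlap for 14 of the 17 probe sets, against 89.4% of all probe sets. Quantile normalization, median centring and scaling on the spiked controls called 1, 0 and 1 of the 17 higher and 8, 12 and 13 lower. Of all 34945 probe sets they called 7305, 6435 and 5518 higher and 13750, 18859 and 18731 lower. These member counts too are not read as a result about the listed genes. A rise named below therefore holds for the deposited scale unless stated otherwise. The median log2 difference was 0.52 over the 17 and 1.06 over all 34945.

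**Figure D1:**
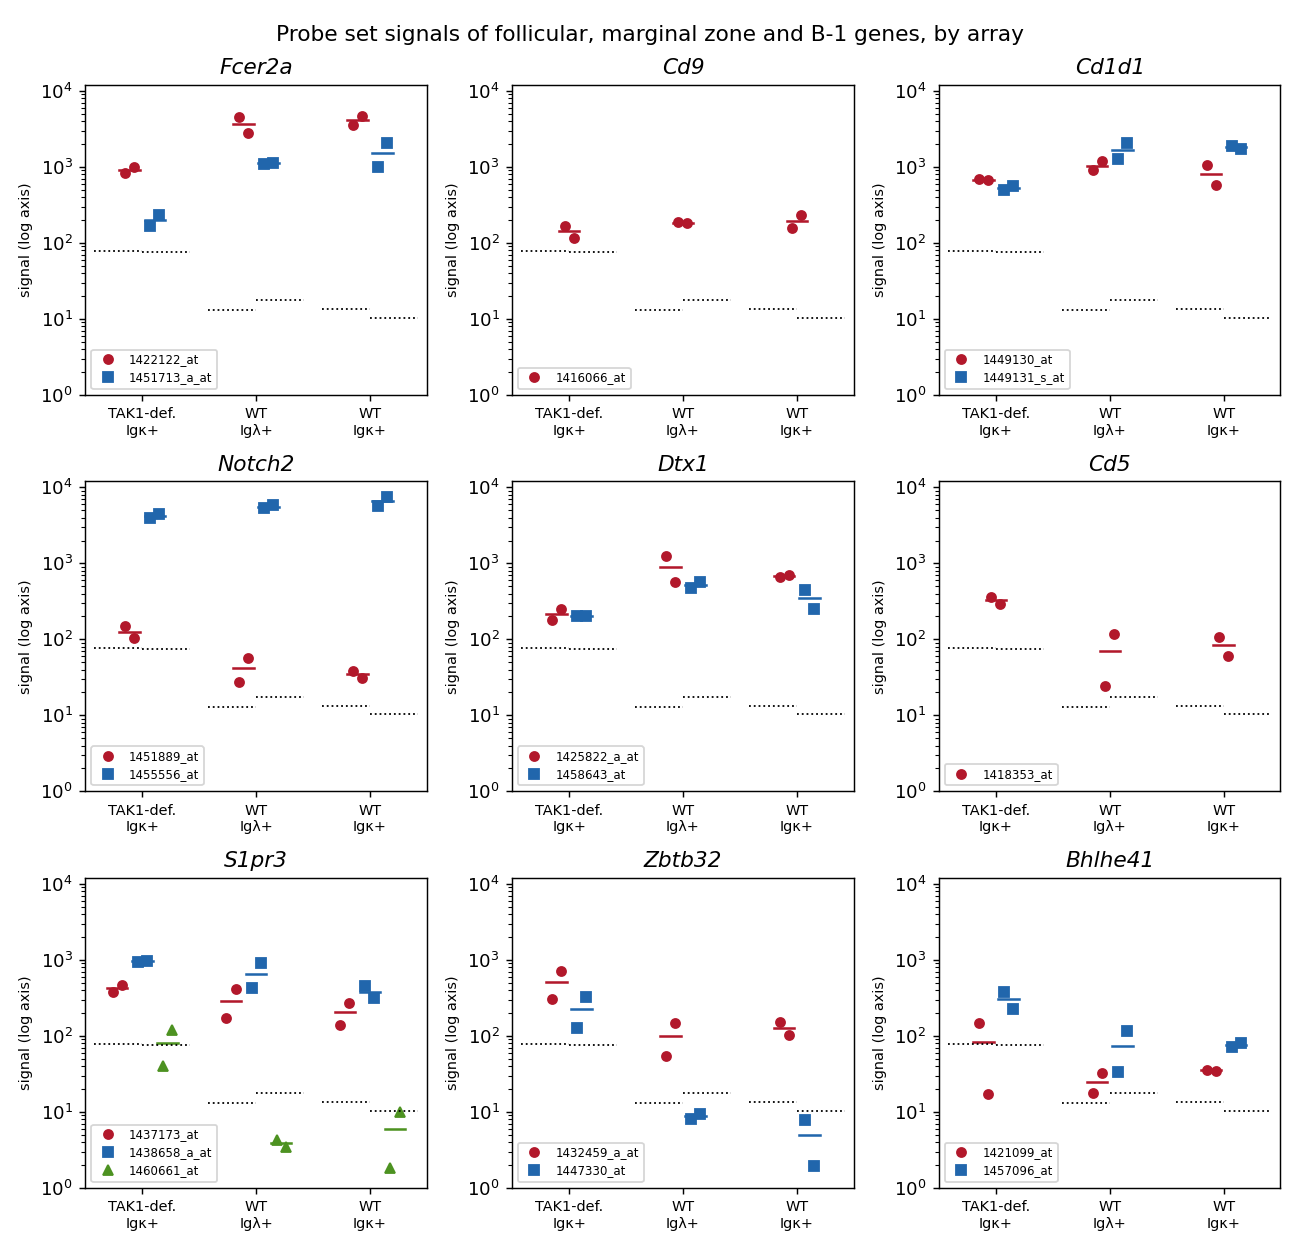
Signal of each of the 17 probe sets on each array, on a log axis, with TAK1-deficient Igκ+, wild-type Igλ+ and wild-type Igκ+ cells from left to right. Each symbol is an array (2 a group), its shape and colour give the probe set, short bars are group means, and dotted lines mark each array's background. Both Fcer2a probe sets lie lower on the TAK1-deficient arrays than on all 4 wild-type arrays, while Cd5 and both Zbtb32 probe sets lie higher there.

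The direction of a change followed the level of the probe set. When all probe sets were divided into 10 bins of equal size by their wild-type Igκ+ level, the median log2 difference ran from 3.02 in the dimmest bin to -1.48 in the brightest. Each member is therefore set beside the median of its own bin, called the median at its level, which is a description and not a test. Of the 17 probe sets, 10 lay below that median and 7 above it. A further setting, the level adjustment, subtracts from each TAK1-deficient array its smooth trend against the mean wild-type level. Under it 2 of the 17 member probe sets were called higher and 4 lower, against 6828 and 7583 of all 34945. These counts are not read as a result about the listed genes.

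**Figure D2:**
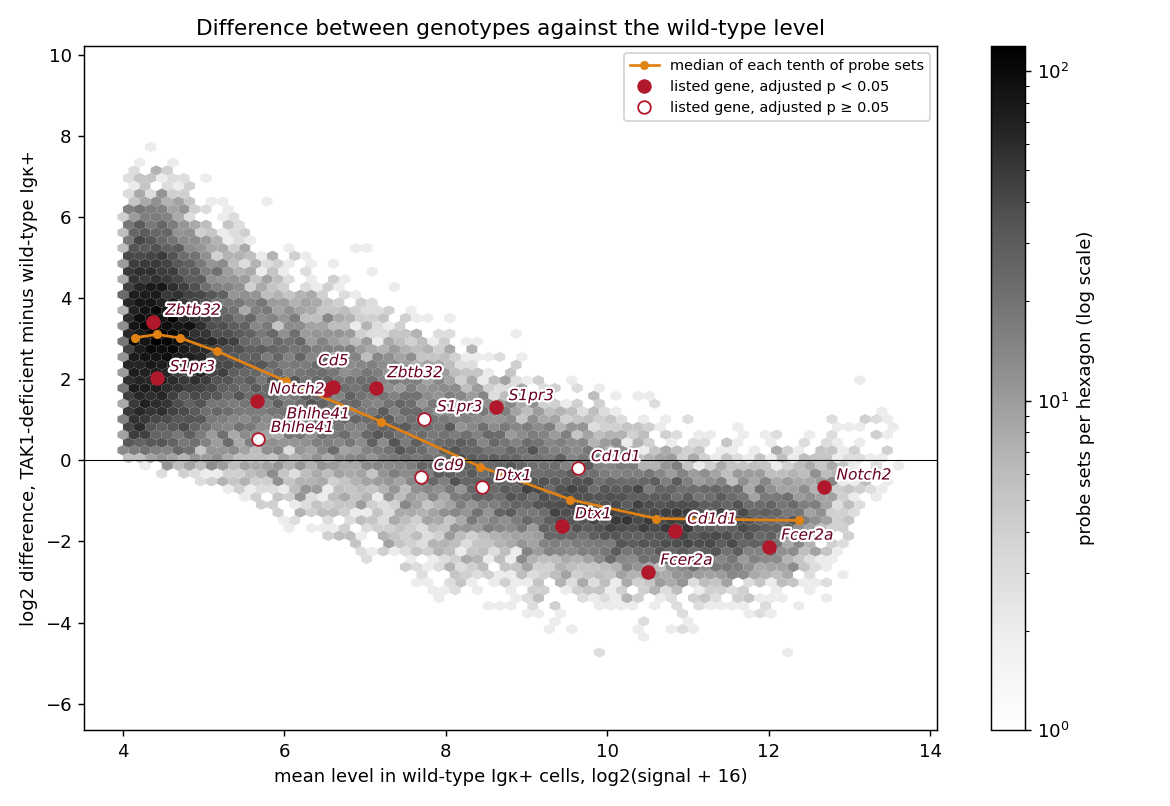
Log2 difference between TAK1-deficient and wild-type Igκ+ cells against the wild-type Igκ+ level on the log2(signal + 16) scale. Grey hexagons count all 34945 probe sets, the orange line joins the medians of the 10 bins, drawn at the middle of each bin's range, and red points are the listed genes, filled where the adjusted p is below 0.05. The line falls with level, and both Fcer2a points lie below it, as do Cd9 and both Dtx1 points.

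Fcer2a encodes CD23, the low-affinity receptor for IgE, which appears as B cells pass to the follicular stage and is low on marginal zone and B-1 cells. Its brighter probe set, 1422122_at, had a signal of 839 and 996 in TAK1-deficient Igκ+ cells, against 3554 and 4656 in wild-type Igκ+ cells. In wild-type Igλ+ cells it was 4551 and 2766. The TAK1-deficient arrays thus lie below all 4 wild-type arrays, at 22.4% of the wild-type Igκ+ mean. The log2 difference was -2.13 ± 0.27 (SE, n = 2 arrays a group; limma, Benjamini-Hochberg adjusted p = 0.00023), and the median at its level was -1.48.

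The other Fcer2a probe set, 1451713_a_at, gave 168 and 236 in TAK1-deficient cells, against 998 and 2052 in wild-type Igκ+ cells, with 1104 and 1122 in wild-type Igλ+ cells. Again no TAK1-deficient array reached a wild-type one. Its log2 difference was -2.75 ± 0.37 (SE), beside a median of -1.43 at its level (limma, Benjamini-Hochberg adjusted p = 0.000329). Fcer2a was the only member gene lower past the threshold at every probe set tested under each alternative that was run. Across these the difference ranged from -5.50 to -0.77 for 1422122_at, with 18 alternatives, and from -5.84 to -1.49 for 1451713_a_at, with 17. The smallest sizes are those with the level adjustment, where the adjusted p was 0.0472 and 0.0153 (limma, Benjamini-Hochberg). As deposited, 88.0% and 82.0% of all probe sets in the bins of 1422122_at and 1451713_a_at were called lower. With the level adjustment 7583 of all 34945 were called lower. How many probe sets outside the list stay lower under every alternative was not counted.

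RefSeq lists 3 start sites for mouse Fcer2a. The window of the second is shown because Fcer2a carries the steadiest difference among the members and because this window holds 2 matches to TGGGAA, the core of the site bound by RBPJ, the DNA-binding partner of Notch. It covers chr8:3690812-3691111 of GRCm38.p6 on the minus strand, from 250 bases before the start to 50 after it, and the matches are in capitals.
Fcer2a, second start: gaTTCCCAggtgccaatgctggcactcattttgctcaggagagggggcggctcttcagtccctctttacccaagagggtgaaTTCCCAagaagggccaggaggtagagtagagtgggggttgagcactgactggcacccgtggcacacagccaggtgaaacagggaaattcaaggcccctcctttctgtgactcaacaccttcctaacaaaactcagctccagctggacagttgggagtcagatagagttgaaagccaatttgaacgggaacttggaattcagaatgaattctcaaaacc
The first Fcer2a window holds no match and the third holds 1. TGGGAA or its reverse complement is common: 25.6% of all 32851 RefSeq windows of 300 bases hold it, against 6 of the 12 windows of the listed genes, those of Cd38, Cd5, Cd9, S1pr3 and Fcer2a. A match describes the letters in this window and is not evidence of binding.

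Notch2 encodes the Notch receptor that directs B cells to the marginal zone, and Dtx1 encodes Deltex1, an E3 ubiquitin ligase whose transcription is raised by Notch signals. The bright Notch2 probe set, 1455556_at, had 3908 and 4438 in TAK1-deficient Igκ+ cells, against 5782 and 7419 in wild-type Igκ+ cells, and 5397 and 5786 in wild-type Igλ+ cells. It stood at 63.2% of the wild-type Igκ+ mean, a log2 difference of -0.65 ± 0.15 (SE; limma, Benjamini-Hochberg adjusted p = 0.00525). Probe sets of its level had a median of -1.48, and with the level adjustment its difference turned to 0.47 (limma, Benjamini-Hochberg adjusted p = 0.0314).

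The dim Notch2 probe set, 1451889_at, went the other way, with 149 and 103 in TAK1-deficient cells, against 38.2 and 31.5 in wild-type Igκ+ cells and 27.4 and 56.8 in wild-type Igλ+ cells. The log2 difference was 1.47 ± 0.36 (SE; limma, Benjamini-Hochberg adjusted p = 0.00713), beside a median of 1.96 at its level. With quantile normalization, median centring and spike-in scaling it turned to -1.14, -0.91 and -1.19. The 2 probe sets thus disagree in sign as deposited, and which of them follows the Notch2 transcript was not tested.

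Dtx1 was lower on the TAK1-deficient arrays at both of its probe sets. At 1425822_a_at it had 182 and 248 in TAK1-deficient cells, against 656 and 705 in wild-type Igκ+ cells, with 1234 and 575 in wild-type Igλ+ cells. The difference of -1.61 ± 0.39 (SE) passed the test (limma, Benjamini-Hochberg adjusted p = 0.00653), and the median at its level was -0.97. At 1458643_at the signals were 204 and 205 in TAK1-deficient cells, against 444 and 251 in wild-type Igκ+ cells, and the difference of -0.67 ± 0.34 (SE) did not pass (limma, Benjamini-Hochberg adjusted p = 0.106). With the level adjustment the first difference was -0.73 and lost its call (limma, Benjamini-Hochberg adjusted p = 0.164).

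The promoter windows of these 2 genes differ in the motif they hold, and that of Notch2 is shown because it is the only member window with a match to the κB motif, the 10-letter consensus of NF-κB, which TAK1 activates. It covers chr3:98013288-98013587 of GRCm38.p6 on the plus strand, with the match in capitals.
Notch2: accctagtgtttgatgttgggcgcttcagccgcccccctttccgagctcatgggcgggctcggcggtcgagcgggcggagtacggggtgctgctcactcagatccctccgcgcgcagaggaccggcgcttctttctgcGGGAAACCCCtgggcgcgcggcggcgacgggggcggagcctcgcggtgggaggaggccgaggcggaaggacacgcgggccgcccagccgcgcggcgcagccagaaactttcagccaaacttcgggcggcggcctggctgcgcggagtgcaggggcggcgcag
On both strands together 8.46% of all RefSeq windows hold a κB match. The Dtx1 window holds neither a κB nor an RBPJ match, which says only that those letters are not in it.

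Other genes of the Notch pathway did not share a direction. Each gene is represented by its brightest probe set, and this and the later lists were tested on the deposited scale alone. Of 24 listed genes 23 had a probe set, and 11 fell, 2 rose and 10 did not pass (limma, Benjamini-Hochberg), with a median log2 difference of -1.02. Averaged over the level bins of these 23 genes, 49.4% of all probe sets were called lower and 22.3% higher, and the median of the medians at their levels was -0.97, so the list lies near its level. The 4 brightest fell. Adam10, the protease that makes the first activating cut in Notch2, averaged 2146 in TAK1-deficient cells, against 4652 in wild-type Igκ+ cells. Psenen and Aph1a, subunits of γ-secretase, which makes the second cut, averaged 1624 and 478 in TAK1-deficient cells, against 4836 and 1750 in wild-type Igκ+ cells. Maml1, a coactivator of the Notch complex, averaged 619 in TAK1-deficient cells, against 2275 in wild-type Igκ+ cells. Medians at their levels were -1.43 for Aph1a and -1.48 for the others, and the 4 log2 differences ran from -1.85 for Maml1 to -1.11 for Adam10.

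Cd1d1, Cd9 and S1pr3 mark marginal zone B cells by surface proteins. Cd1d1 encodes CD1d, which presents lipids to NKT cells. Its probe set 1449131_s_at had 497 and 567 in TAK1-deficient Igκ+ cells, against 1881 and 1736 in wild-type Igκ+ cells, and 1275 and 2070 in wild-type Igλ+ cells. The TAK1-deficient arrays lie apart from all wild-type arrays, with a log2 difference of -1.74 ± 0.27 (SE; limma, Benjamini-Hochberg adjusted p = 0.000707) beside a median of -1.43 at its level. With the level adjustment this was -0.32 (limma, Benjamini-Hochberg adjusted p = 0.354). In Affymetrix naming the suffix _s_at means that the probes can match transcripts of more than 1 gene, and Cd1d2 is a near-identical neighbour, so this value may not be of Cd1d1 alone.

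The other Cd1d1 probe set, 1449130_at, had 694 and 667 in TAK1-deficient cells, against 1048 and 583 in wild-type Igκ+ cells. In wild-type Igλ+ cells it had 904 and 1180. Here the TAK1-deficient and wild-type Igκ+ arrays overlap. The log2 difference of -0.20 ± 0.32 (SE) did not pass (limma, Benjamini-Hochberg adjusted p = 0.589), and its 95% confidence interval ran from -0.95 to 0.56.

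Cd9 encodes a tetraspanin carried by marginal zone and B-1 B cells and by plasma cells, and also by megakaryocytes and platelets. Its single probe set, 1416066_at, had 168 and 115 in TAK1-deficient Igκ+ cells, against 158 and 230 in wild-type Igκ+ cells. In wild-type Igλ+ cells it had 186 and 184. The TAK1-deficient and wild-type Igκ+ arrays overlap. The log2 difference of -0.42 ± 0.33 (SE) did not pass (limma, Benjamini-Hochberg adjusted p = 0.28). Probe sets of its level had a median of 0.95, and with the level adjustment the log2 difference of Cd9 was -1.15 and was called (limma, Benjamini-Hochberg adjusted p = 0.0303). It was also called lower with quantile normalization, median centring and spike-in scaling. Of 6 plasma cell markers 4 were called lower and 2 higher, and their summed signal was 5041 and 6555 in TAK1-deficient cells, against 20004 and 14689 in wild-type Igκ+ cells. All 6 were above background on these arrays. In the level bins of these markers 59.2% of all probe sets, on average, were called lower and 17.9% higher. The median log2 difference of the markers was -1.06, beside a median of -1.43 at their levels. Their part in the Cd9 values was not tested.

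S1pr3 encodes a sphingosine-1-phosphate receptor found on marginal zone B cells and on vascular cells. Its brightest probe set, 1438658_a_at, had 940 and 975 in TAK1-deficient Igκ+ cells, against 450 and 317 in wild-type Igκ+ cells. In wild-type Igλ+ cells it had 423 and 900, so the second Igλ+ array came close to the TAK1-deficient ones. The log2 difference was 1.31 ± 0.38 (SE; limma, Benjamini-Hochberg adjusted p = 0.0157), where probe sets of its level had a median of -0.16. With the level adjustment it was 1.72 and still called, the only member called higher as deposited and with that adjustment. It was negative with median centring and spike-in scaling, at -1.07 and -2.04. The call was lost without either TAK1-deficient array and without wild-type Igκ+ replicate 2, where the adjusted p was 0.0511, 0.0569 and 0.0987 (limma, Benjamini-Hochberg).

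The 2 other S1pr3 probe sets were also higher on the TAK1-deficient arrays. At 1437173_at the signals were 376 and 466 in TAK1-deficient cells, against 140 and 274 in wild-type Igκ+ cells, and the difference of 1.03 ± 0.48 (SE) did not pass (limma, Benjamini-Hochberg adjusted p = 0.0842). At 1460661_at they were 40.4 and 118 in TAK1-deficient cells, of which only the second is above background, while all 4 wild-type arrays were at or below 9.93 and below background. The fit called it higher (limma, Benjamini-Hochberg adjusted p = 0.00383), but with 1 of 2 TAK1-deficient arrays above background and a median of 3.10 at its level no fold is given.

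Markers of stromal and endothelial cells, some of which also express S1pr3, moved the same way: 8 of 9 rose and 1 fell, and their summed signal was 5724 and 5695 in TAK1-deficient, 1064 and 1007 in wild-type Igλ+ and 1302 and 1132 in wild-type Igκ+ cells. Of the 9 markers, 9 were above background on both TAK1-deficient arrays, 6 and 4 on the Igλ+ arrays and 7 and 4 on the wild-type Igκ+ arrays. In the level bins of these markers 74.7% of all probe sets, on average, were called higher. The median log2 difference of the markers was 4.27, beside a median of 2.69 at their levels. Their part in the S1pr3 result was not tested.

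Of 12 other genes of marginal zone development and positioning, 8 fell, 2 rose and 2 did not pass (limma, Benjamini-Hochberg), with a median log2 difference of -1.74. In the level bins of these genes 59.99% of all probe sets, on average, were called lower and 13.4% higher, and the median of the medians at their levels was -1.43. The 4 brightest fell. Mzb1, an endoplasmic reticulum protein of marginal zone and B-1 cells, averaged 830 in TAK1-deficient cells, against 4708 in wild-type Igκ+ cells. Ptk2b, the kinase Pyk2, averaged 884 in TAK1-deficient cells, against 4059 in wild-type Igκ+ cells. Arhgef1 and Dock8 averaged 865 and 963 in TAK1-deficient cells, against 3168 and 2616 in wild-type Igκ+ cells. The median at the level of all 4 was -1.48. The 2 that rose, Itgb1 and Cd36, were dimmer, with log2 differences of 2.65 and 2.09 and a median of -0.16 at their level.

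Cd5, Zbtb32 and Bhlhe41 are the B-1 genes of the list, and all were dim in wild-type cells. Cd5 encodes a scavenger-receptor family protein that dampens antigen receptor signals in B-1a cells and is also a T cell marker. Its probe set 1418353_at had 363 and 288 in TAK1-deficient Igκ+ cells, against 108 and 59.9 in wild-type Igκ+ cells, and 24.1 and 118 in wild-type Igλ+ cells. Both TAK1-deficient arrays lie above all 4 wild-type arrays, with a log2 difference of 1.81 ± 0.57 (SE; limma, Benjamini-Hochberg adjusted p = 0.0213). The median at its level was 0.95, and the level adjustment left -0.054. With quantile normalization, median centring and spike-in scaling it was -0.30, -0.57 and -1.27, none of them called. The call was lost without TAK1-deficient replicate 1 or 2 and without wild-type Igκ+ replicate 2, where the adjusted p was 0.0968, 0.0567 and 0.126 (limma, Benjamini-Hochberg).

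Markers of T cells, which carry Cd5, were examined beside it. Of 9 measured, 7 rose and 2 did not pass, in level bins where 83.0% of all probe sets, on average, were called higher. Their median log2 difference was 3.19, beside a median of 3.02 at their levels. Their summed signal was 4297 and 4650 in TAK1-deficient, 340 and 110 in wild-type Igλ+ and 225 and 180 in wild-type Igκ+ cells. Bcl11b made the largest part of the TAK1-deficient sum, with a mean of 2372, and the next marker, Cd8a, averaged 448. Of the 9, 6 and 7 were above background on the TAK1-deficient arrays, 9 and 2 on the Igλ+ arrays and 6 and 5 on the wild-type Igκ+ arrays. Their part in the Cd5 result was not tested.

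Zbtb32 encodes a zinc finger repressor that limits the persistence of memory B cells and is expressed in B-1 cells. At 1432459_a_at it had 309 and 708 in TAK1-deficient Igκ+ cells, against 150 and 104 in wild-type Igκ+ cells, and 53.6 and 146 in wild-type Igλ+ cells. The groups do not overlap, but the TAK1-deficient arrays are 2.29-fold apart. The log2 difference was 1.78 ± 0.53 (SE; limma, Benjamini-Hochberg adjusted p = 0.017). Without TAK1-deficient replicate 2 or wild-type Igκ+ replicate 2 the call was lost (limma, Benjamini-Hochberg adjusted p = 0.123 and 0.0981). At 1447330_at it had 126 and 325 in TAK1-deficient cells, while all 4 wild-type arrays, from 1.91 to 9.50, were below background. The fit called 1447330_at higher (limma, Benjamini-Hochberg adjusted p = 0.00026). Background was 77.7 and 75.7 on the TAK1-deficient arrays, against 13.4 and 10.3 on the wild-type Igκ+ arrays, so no fold is given. In the bin that holds 1447330_at 90.7% of probe sets were called higher, and with the level adjustment the differences of 1432459_a_at and 1447330_at were 0.37 and 0.18 and neither was called. The first turned to -0.60 under median centring and -1.40 under spike-in scaling.

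Bhlhe41, also called Dec2, encodes a basic helix-loop-helix repressor that B-1a cells need for their development and self-renewal in mice. At 1457096_at it had 380 and 224 in TAK1-deficient Igκ+ cells, against 72.3 and 79.7 in wild-type Igκ+ cells, and 33.5 and 116 in wild-type Igλ+ cells. The log2 difference was 1.75 ± 0.50 (SE; limma, Benjamini-Hochberg adjusted p = 0.0142), near the median of 1.96 at its level, and the level adjustment left -0.094. Quantile normalization, median centring and spike-in scaling gave -0.39, -0.64 and -1.31. It lost its call without TAK1-deficient replicate 1 and without either wild-type Igκ+ array, with an adjusted p of 0.0966, 0.0683 and 0.0567 (limma, Benjamini-Hochberg). At 1421099_at the TAK1-deficient arrays had 147 and 17.1, the second below that array's background of 75.7, and wild-type Igκ+ cells had 36.1 and 34.3. That difference of 0.52 ± 0.67 (SE) did not pass (limma, Benjamini-Hochberg adjusted p = 0.496).

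The promoter of Bhlhe41 is shown because it is the only member window with the palindrome CACGTG, the E-box that proteins of this family bind. It covers chr6:145865371-145865670 of GRCm38.p6 on the minus strand, with the match in capitals, and 7.15% of all RefSeq windows hold such a match.
Bhlhe41: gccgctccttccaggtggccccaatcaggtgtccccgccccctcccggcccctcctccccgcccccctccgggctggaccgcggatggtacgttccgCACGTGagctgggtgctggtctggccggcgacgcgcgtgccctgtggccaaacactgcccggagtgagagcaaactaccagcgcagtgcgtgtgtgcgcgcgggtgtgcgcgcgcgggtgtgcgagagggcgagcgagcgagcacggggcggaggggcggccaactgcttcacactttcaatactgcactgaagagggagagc

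**Figure D3:**
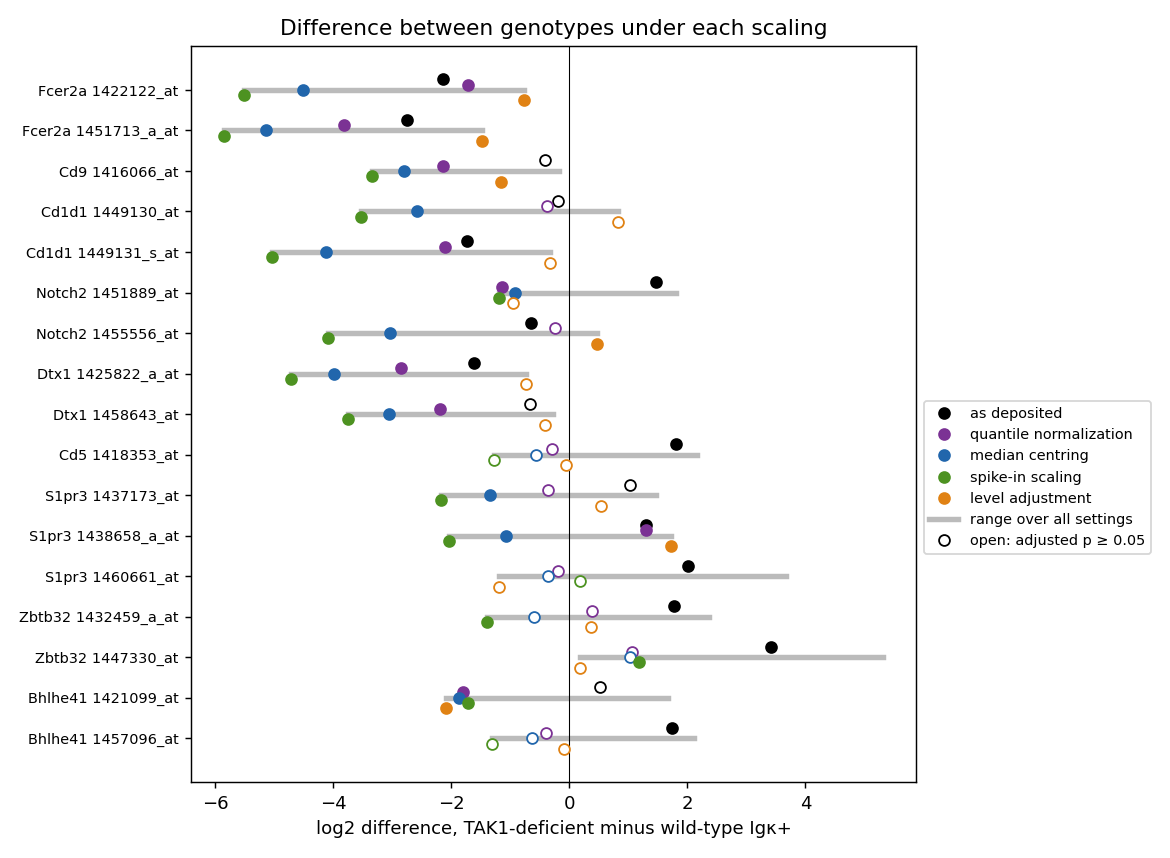
Log2 difference between TAK1-deficient and wild-type Igκ+ cells for each probe set under 5 scalings (coloured points, filled where the adjusted p is below 0.05), with the range over all settings as a grey bar. Only the Fcer2a rows have filled points left of 0 under all 5 scalings. Cd5, Bhlhe41, S1pr3 and Notch2 cross 0 at every probe set, as do the brighter Zbtb32 probe set and Cd1d1 1449130_at.

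Of 10 other B-1 genes, 5 rose, 3 fell and 2 did not pass (limma, Benjamini-Hochberg), with a median log2 difference of 0.59. Their level bins had 38.8% of all probe sets called higher and 39.2% lower on average, with a median of -0.16. Among the 4 brightest, Spn, Nfatc1 and Bhlhe40 fell. Spn, which encodes CD43, a surface marker of B-1 cells, averaged 188 in TAK1-deficient cells, against 1085 in wild-type Igκ+ cells. Nfatc1, a transcription factor that B-1a cells need, averaged 914 in TAK1-deficient cells, against 3034 in wild-type Igκ+ cells. Bhlhe40, the close relative of Bhlhe41, averaged 249 in TAK1-deficient cells, against 1659 in wild-type Igκ+ cells, the opposite direction to Bhlhe41 at 1457096_at. The median at the level of Spn and Bhlhe40 was -1.43 and that at the level of Nfatc1 and Siglecg -1.48. Siglecg, an inhibitory receptor that restrains B-1a cells, averaged 6007 in TAK1-deficient cells, against 5679 in wild-type Igκ+ cells, and did not pass (limma, Benjamini-Hochberg adjusted p = 0.644). The 5 that rose, Arid3a, Ctla4, Itgam, Il10 and Lin28b, were dimmer than these. Their log2 differences were 1.11, 3.44, 2.56, 2.36 and 1.75, beside medians of -0.16, 1.96, 3.02, 3.02 and 3.10 at their levels. The Lin28b mean in TAK1-deficient cells, 50.6, was below the background of those arrays.

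Of 10 measured follicular genes other than Fcer2a, 7 fell, 1 rose and 2 did not pass (limma, Benjamini-Hochberg), with a median log2 difference of -1.50. All 10 are in the brightest bin, where the median was -1.48 and 88.0% of all probe sets were called lower, so the count is not read as a result about follicular genes. Among the 4 brightest, Itga4, an integrin chain, fell to a mean of 3159 in TAK1-deficient cells, against 6122 in wild-type Igκ+ cells. Ms4a1, which encodes CD20, rose, with 24175 in TAK1-deficient cells, against 10276 in wild-type Igκ+ cells. The latter is near the top of the wild-type Igκ+ scale, where the highest signals were 15310 and 16295. Tnfrsf13c, the BAFF receptor, and the inhibitory receptor gene Cd22 had log2 differences of -0.26 and -0.25 and did not pass (limma, Benjamini-Hochberg adjusted p = 0.0772 and 0.0973). Genes of immature and transitional B cells gave 3 that rose, 1 that fell and 5 that did not pass among 9, where their level bins had 27.1% of all probe sets called higher and 50.1% lower on average. Their median log2 difference was 0.48, beside a median of -1.43 at their levels. Cd24a, a surface marker that is high on immature B cells, averaged 47840 in TAK1-deficient cells, against 11739 in wild-type Igκ+ cells, which is also near the top of that scale. Vpreb3, whose protein associates with immunoglobulin chains in early B cells, fell to 1605 in TAK1-deficient cells, against 3334 in wild-type Igκ+ cells. The log2 difference of Vpreb3 was -1.04, and the median at the level of both genes was -1.48. Cd93 and Igll1, markers of early transitional and pre-B cells, had log2 differences of 0.13 and -0.21 and did not pass (limma, Benjamini-Hochberg adjusted p = 0.711 and 0.606).

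**Figure D4:**
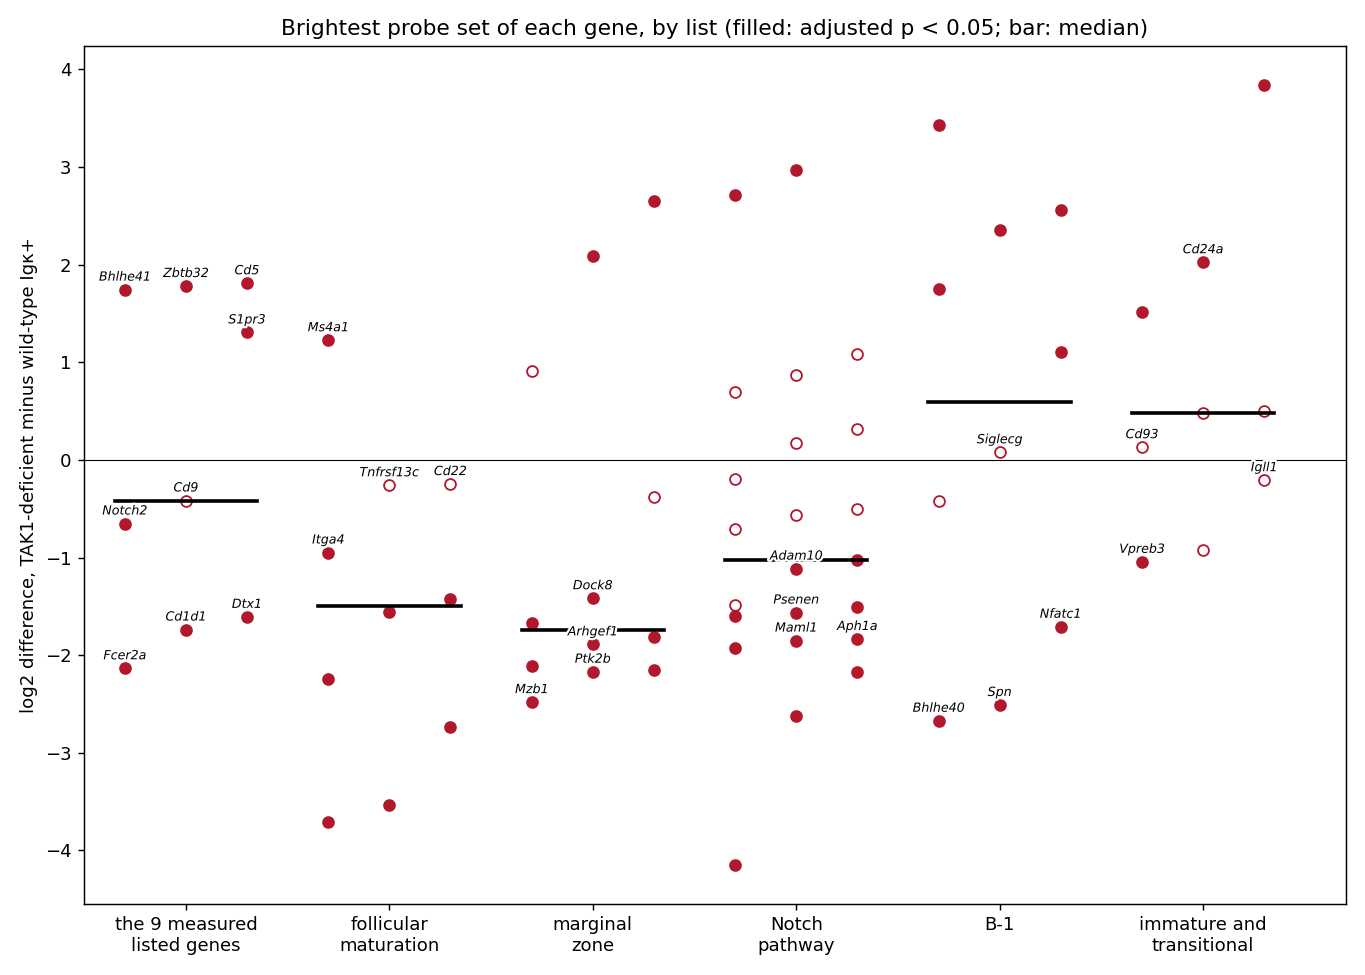
Log2 difference between TAK1-deficient and wild-type Igκ+ cells for the brightest probe set of each gene, by list. Points are genes, filled where the adjusted p is below 0.05, bars are medians, and names are given for the listed genes and the 4 brightest of each other list. The follicular, marginal zone and Notch medians lie between -1.74 and -1.02, and the B-1 and immature medians at 0.59 and 0.48. In this order, the medians at their levels, not drawn, were -1.48, -1.43, -0.97, -0.16 and -1.43.

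The second comparison set wild-type Igλ+ against wild-type Igκ+ cells, which asks whether cells that settled on a λ light chain express these subset genes differently. None of the 17 probe sets passed the test in either direction (limma, Benjamini-Hochberg, smallest adjusted p = 0.999897), none had an unadjusted p below 0.05, and 0% of all 34945 probe sets were called, while 1.8% had an unadjusted p below 0.05. The sizes ran from 0.04 to 0.69 on the log2 scale, 7 positive and 10 negative, and the groups did not overlap for 3 of 17 probe sets (of Dtx1, Zbtb32 and Bhlhe41), against 26.8% of all. Both comparisons use the same wild-type Igκ+ arrays. A missed threshold does not show that the groups are alike. The 95% confidence interval of the difference ran from -0.82 to 0.43 for Fcer2a at 1422122_at, from -0.58 to 0.12 for Notch2 at 1455556_at and from -0.82 to 0.74 for Cd9, while for Cd5 it was as wide as -1.74 to 0.94.

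The largest difference was that of S1pr3 at 1438658_a_at, with 423 and 900 in Igλ+ cells, against 450 and 317 in wild-type Igκ+ cells, a log2 difference of 0.69 ± 0.38 (SE) that was 0.16 without the second Igλ+ array. Dtx1 at 1458643_at came next, with 474 and 573 in Igλ+ cells, against 444 and 251 in wild-type Igκ+ cells, where both Igλ+ arrays were the higher ones (log2 difference 0.62 ± 0.34 SE). The other Dtx1 probe set had 1234 and 575 in Igλ+ cells, against 656 and 705 in wild-type Igκ+ cells, and the groups overlap there.

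**Figure D5:**
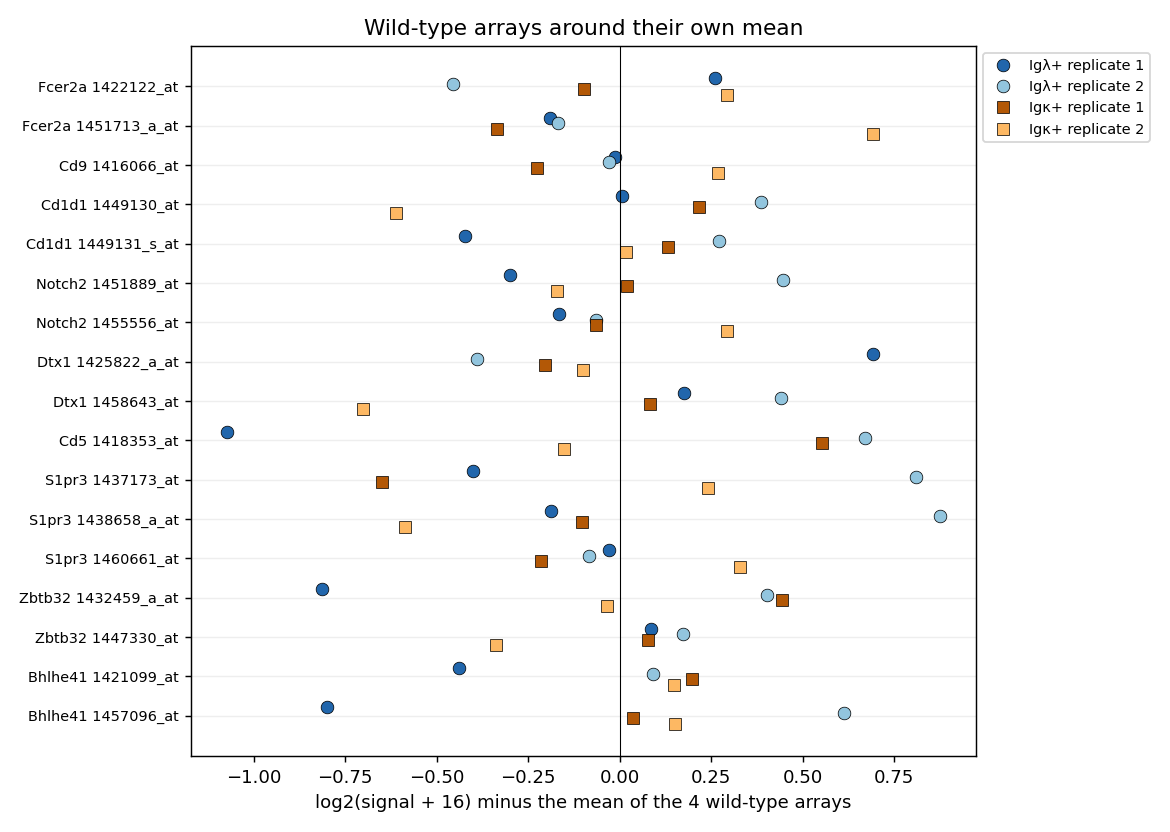
Each wild-type array's log2(signal + 16) minus the mean of the 4 wild-type arrays, by probe set, with Igλ+ arrays as blue circles and wild-type Igκ+ arrays as orange squares. Igλ+ replicate 1 is the lowest of the 4 arrays for 7 of 17 probe sets, among them Cd5 and both Bhlhe41 probe sets, and replicate 2 is the highest for 9.

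The Igλ+ replicates differed from each other. Replicate 1 was the lowest of the 4 wild-type arrays for 7 of the 17 probe sets and the highest for 1. Replicate 2 was the lowest for 2 and the highest for 9. The 17 include S1pr3 1460661_at and Zbtb32 1447330_at, which were below background on all 4 wild-type arrays. Such counts were not taken over all probe sets, whose median signal was 53.7 on replicate 1 and 59.1 on replicate 2. Cd5 was 4.91-fold apart between the Igλ+ replicates, Bhlhe41 at 1457096_at 3.45-fold and Zbtb32 at 1432459_a_at 2.72-fold, each lower on replicate 1. Markers of several other cell types, not of myeloid cells alone, also differed between these replicates and were higher on replicate 1. Erythroid and megakaryocyte markers summed to 1419 and 6434 on Igλ+ replicate 1, against 55.2 and 1204 on replicate 2. T and NK cell markers summed to 340 and 2171 on replicate 1, against 110 and 1022 on replicate 2. The summed signal of 8 granulocyte markers was 36120 on Igλ+ replicate 1 and 320.0 on replicate 2, against 5198 and 313 on the wild-type Igκ+ arrays, and that of 7 monocyte and macrophage markers was 9992 and 526, against 2196 and 922. Of the 8 granulocyte markers, 8 and 5 were above background on the Igλ+ arrays, against 8 and 6 on the wild-type Igκ+ arrays. The part of these cell types in the spread of the listed genes was not tested. Without Igλ+ replicate 1 the differences of Cd5, Zbtb32 at 1432459_a_at and Bhlhe41 at 1457096_at changed sign, to 0.47, 0.20 and 0.52, and none passed.

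Across the 3 groups Fcer2a at both probe sets, Notch2 at 1455556_at and Cd1d1 at 1449131_s_at had means in the order TAK1-deficient, wild-type Igλ+ and wild-type Igκ+ from low to high. Dtx1 at 1425822_a_at was also lowest in TAK1-deficient cells but higher in wild-type Igλ+ than in wild-type Igκ+ cells, and S1pr3 at 1438658_a_at was highest in TAK1-deficient cells. The 2 wild-type groups overlap at each of these probe sets. Genes with the most similar pattern were looked up for Notch2 and Fcer2a, the 2 members with the highest mean signal, as those with the smallest Euclidean distance over the 6 arrays between centred log2 values, among genes within 1 log2 unit of the member's mean level. For Fcer2a, among 3272 such genes, they were Helz2 (distance 0.12), Pink1 (0.20) and Icosl (0.23), the last of which encodes the ligand of the costimulatory receptor ICOS. Helz2 had 809 and 936 in TAK1-deficient Igκ+, 4008 and 2574 in wild-type Igλ+ and 3270 and 4113 in wild-type Igκ+ cells. For Notch2, among 1057 genes, they were Mrfap1 (0.16), Iqgap1 (0.17) and Med13l (0.18).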

How the data were processed

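RNA of 6 samples was measured on Affymetrix arrays. The authors deposited probe set intensities on a linear scale, which the submitters' processing notes name as MAS5 values, of a version not given in the sources used here. On every array the mean without the lowest and highest 2% of probe sets is 500, so each carries 1 scaling factor. Genes come from the platform's annotation: 34945 probe sets have 1 gene symbol, 932 several and 9160 none listed, and 64 are controls.

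Groups follow the titles, and "-rep" marks replicate 2. Tests used limma 3.58.1 in R 4.3.3 on log2(signal + 16), unfiltered, from 1 model of the 3 group means over all 6 arrays (3 residual degrees of freedom, eBayes with trend). They were two-sided, with Benjamini-Hochberg adjustment over all 34945 probe sets. The added 16 makes differences of dim probe sets smaller. Fits were tested on simulated data in which the compared groups shared a scale and few probe sets differed. The scale difference of the TAK1-deficient arrays was not simulated between the compared groups, so that test says nothing about it. No filter was used, since a mean over all arrays would pass dim members through the group in which they are high; at the 40th percentile 13 of 17 passed.

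The members, lists and tests were chosen with earlier results of these data known. All member probe sets were named, with the 4 brightest genes of each other list and 3 genes of like pattern for each of 2 members. The genes that rose in the marginal zone and B-1 lists were named as well. Promoter windows come from RefSeq (GRCm38.p6), for 9 of the 10 genes. The 3 motifs were searched on both strands and may overlap. The 18 alternatives are in the closing section. Figures were drawn with matplotlib 3.10.9.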

Additional observations from a re-analysis of the deposited data

How the results depend on the processing

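Of 18 alternatives, those that rescale the arrays moved the genotype result most. Against 7 member probe sets higher and 5 lower as deposited, quantile normalization gave 1 and 8, median centring 0 and 12, scaling on the spiked controls 1 and 13, and the level adjustment 2 and 4. Over all probe sets the median log2 difference was 1.06 as deposited and -0.45, -1.32, -1.48 and -0.13 under these. Of all calls, the share that were higher was 66.0%, 34.7%, 25.4%, 22.8% and 47.4%. Of all 34945 probe sets, in this order, 17743, 7305, 6435, 5518 and 6828 were called higher and 9136, 13750, 18859, 18731 and 7583 lower. Fewer probe sets were tested with a filter at the 40th percentile, which gave 4 higher (also 4 with 1 probe set per gene), and at the 60th, which gave 1. Of all probe sets tested there, in this order, 7169 of 21168, 3738 of 11884 and 3040 of 14780 were called higher. Leaving out 1 array gave 3 to 8 higher and 5 to 6 lower, with 3 higher without wild-type Igκ+ replicate 2 and 4 without TAK1-deficient replicate 1. The title suffix as a replicate block gave 8 higher and 5 lower, adding S1pr3 1437173_at; deviations of same-numbered arrays correlated at 0.002 to 0.21 and the labels do not say that the suffix pairs arrays. It moved no count past 1.5 times. In the Igλ+ comparison 0 member probe sets were called under all 18 alternatives.

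These genotype differences changed sign. With quantile normalization Notch2 1451889_at was -1.14, Cd5 -0.30, S1pr3 1437173_at -0.36 and 1460661_at -0.19, and Bhlhe41 1421099_at -1.80 and 1457096_at -0.39. With median centring, in this order, they were -0.91, -0.57, -1.35, -0.36, -1.86 and -0.64, with S1pr3 1438658_a_at at -1.07 and Zbtb32 1432459_a_at at -0.60. With spike-in scaling Notch2 1451889_at was -1.19, Cd5 -1.27, S1pr3 1437173_at -2.18 and 1438658_a_at -2.04, Zbtb32 1432459_a_at -1.40, and Bhlhe41 1421099_at -1.71 and 1457096_at -1.31. With the level adjustment Cd1d1 1449130_at was 0.82, Notch2 1451889_at -0.95 and 1455556_at 0.47, Cd5 -0.054, S1pr3 1460661_at -1.18, and Bhlhe41 1421099_at -2.08 and 1457096_at -0.094. These settings rescale the TAK1-deficient arrays by construction; beyond that the cause was not tested. Leaving out 1 array gave -0.63 to 1.67 for Bhlhe41 1421099_at and -0.61 to 0.22 for Cd1d1 1449130_at.

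In the Igλ+ comparison Notch2 1451889_at turned to -0.054 with quantile normalization and -0.0010 with median centring. Leaving out 1 array gave -0.55 to 0.16 and -0.87 to 0.16 for Fcer2a 1422122_at and 1451713_a_at, -0.29 to 0.21 for Cd9, -0.021 to 0.81 and -0.50 to 0.19 for Cd1d1 1449130_at and 1449131_s_at, -0.22 to 0.52 for Notch2 1451889_at, -0.24 to 0.84 for Dtx1 1425822_a_at, -1.27 to 0.47 for Cd5, -0.20 to 1.01 and -0.38 to 0.16 for S1pr3 1437173_at and 1460661_at, -1.02 to 0.20 for Zbtb32 1432459_a_at and -0.89 to 0.52 for Bhlhe41 1457096_at. Where 1 array of a group was left, its spread was taken from the other groups. Signals of S1pr3 1460661_at and Zbtb32 1447330_at on wild-type arrays were below background, so their sizes depend on it.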
